A study of Mus musculus with 33 samples.

Results

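Malat1 and Neat1, neighbouring genes for long noncoding RNAs that stay in the nucleus, were described in the 33 RNA-seq libraries of sorted mouse immune cells from a study of transplant tolerance. They are 2 of the 31054 gene entries counted in every library, and each was found by its Ensembl mouse identifier, ENSMUSG00000092341 for Malat1 and ENSMUSG00000092274 for Neat1. The pair was selected on measured values of these libraries, those of Malat1 in CD127hi Tregs of tolerant spleen beside Tregs of naive spleen. The values of comparisons that hold either of these subsets are therefore given as a description, without a test. Across all libraries Malat1 took between 0.491% and 15.6% of the reads assigned to genes and was the most abundant gene in 23 of the 33, whereas Neat1 ranked between 132 and 1784.

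Malat1 is an abundant nuclear RNA that gathers at nuclear speckles, bodies rich in splicing factors. Neat1 is the RNA scaffold of paraspeckles, nuclear bodies that form around its long form and hold proteins such as Nono and Sfpq. The 3′ ends of Malat1 and of the long Neat1 form are not made by the usual polyadenylation machinery but by RNase P, which cuts behind a genome-encoded stretch of A and sets free a small tRNA-like RNA, whereas the short Neat1 form ends in an ordinary poly(A) tail. Both RNAs are made in most mouse tissues, T cells included.

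In the GRCm38 build both genes lie on the minus strand of chromosome 19 and are annotated as long intergenic noncoding RNAs. Malat1 spans chr19:5795690-5802672, 6983 bases, and its longest annotated transcript, Malat1-201, is 1 exon over the whole gene. Neat1 spans chr19:5824708-5845478, 20771 bases, with a gap of 22035 bases between the genes. Its annotated forms include the unspliced Neat1-201 of 20771 bases and the short Neat1-202 of 3004 bases in 2 exons, which cannot be told apart in counts per gene. The ends of these transcripts are shown, 5′ to 3′, because the forms of these RNAs differ in how their 3′ ends are made. In the first, from base 6614 to 6745 of Malat1-201, capitals mark the longest run of A in the transcript, at bases 6674 to 6685. In the last 60 bases of Malat1-201 and of Neat1-202, capitals mark the last AATAAA, the usual polyadenylation signal. In the last 60 bases of Neat1-201, capitals mark the run of A at the annotated end. The sequences are those of the GENCODE transcripts on this build.
Malat1-201, A-rich stretch: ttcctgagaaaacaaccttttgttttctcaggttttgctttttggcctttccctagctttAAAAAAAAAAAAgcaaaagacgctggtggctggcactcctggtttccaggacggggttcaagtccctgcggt
Malat1-201, annotated end: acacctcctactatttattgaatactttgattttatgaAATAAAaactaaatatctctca
Neat1-202, annotated end: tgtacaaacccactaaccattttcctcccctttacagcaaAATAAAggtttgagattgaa
Neat1-201, annotated end: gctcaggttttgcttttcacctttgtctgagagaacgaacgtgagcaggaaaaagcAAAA
The short Neat1-202 carries an AATAAA at bases 2985 to 2990, near its annotated end at 3004, whereas the annotated end of the long Neat1-201 is itself a run of A with no such hexamer in the bases shown. The annotated Malat1 gene runs 298 bases past its A stretch to an end with an AATAAA of its own.

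The cells came from DEREG mice, a C57BL/6 transgenic line in which the Foxp3 promoter drives a diphtheria toxin receptor and enhanced GFP, so that GFP marks Foxp3+ regulatory T cells (Tregs) in naive and tolerant animals alike. Tolerant mice carried porcine neonatal islet cell clusters, 4000 islet equivalents, under the kidney capsule, had been given MR-1, an antibody to CD40 ligand, and CTLA4-Fc at 500 μg a mouse, and were examined on day 100. Naive mice had neither transplant nor treatment. Each of the 11 subsets had 3 libraries, made from a small fixed number of sorted cells. The spleen (SP) gave CD45+CD4- cells and CD4+GFP- T cells (CD4+ below) of naive and of tolerant mice, Tregs of naive mice, and CD127hi and CD127-/lo Tregs of tolerant mice. The graft-draining lymph node (DLN) gave naive Tregs and the CD127hi and CD127-/lo Tregs of tolerant mice, and the tolerant graft gave 1 subset of Tregs that was not divided by CD127. The study describes samples as pools of several mice, with few naive mice for each tissue, and the labels do not say which libraries share animals. The p-values therefore refer to libraries and not to animals. Those of the quasi-likelihood test for Malat1 also rest on a spread borrowed from other genes, as set out below.

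The 24 spleen and graft libraries, sequenced on a NextSeq 500, held 2550698 to 4615283 gene counts. The 9 DLN libraries, sequenced on a MiSeq, held 844039 to 1935323. Tissue and sequencer therefore cannot be told apart, and no difference between subsets was computed across them. Correlations over all 33 libraries, given below as a description, do run across them. Malat1 rested on 20541 to 280634 counts and Neat1 on 343 to 2286, so counting error was small beside the differences between libraries. The sorts were seen in the marker genes, 6 Treg markers summing to 5102 to 19346 CPM (a gene's counts relative to the scaled total of its library) in Treg libraries and to 72.3 to 1814 CPM in Foxp3- libraries. The 6 B cell markers summed to 2784 to 6158 CPM in CD45+CD4- libraries and to at most 443 CPM elsewhere. The 8 kidney epithelial markers reached 18.2 to 891 CPM in graft Treg libraries. Xist, the RNA of the inactive X chromosome, was at 405 and 459 CPM in replicates 1 and 2 of DLN/naive Tregs and at 1.24 CPM in replicate 3, with no other library above 5.41 CPM, so these DLN/naive libraries stand apart. Per a figure legend of the study the tolerant mice of these libraries were male and the naive mice of the lymph node samples female. Sex and tolerance thus cannot be told apart in the DLN comparisons with naive Tregs, and the Xist level of replicate 3 goes against that sex. The differences of Malat1 and Neat1 from DLN/naive Tregs are also given with replicate 3 alone. In bulk libraries such as these, fewer cells of a type and less RNA per cell cannot be told apart.

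All levels below are CPM of gene counts, with library totals scaled by TMM (trimmed mean of M values) factors, which set libraries to a common scale by the bulk of their genes, and geometric means are used for the order of subsets. In the spleen and graft, Malat1 was highest in SP/naive CD4+ cells, at 46086, 47467 and 51700 CPM in replicates 1 to 3 (geometric mean 48360). SP/naive Tregs followed with 77259, 35032 and 30482 CPM (43533), and graft Tregs with 45883, 34732 and 24010 CPM (33697). SP/naive Tregs overlapped both other subsets, whereas graft Tregs lay just below SP/naive CD4+ cells without overlap. A gap without overlap separated graft Tregs from SP/CD127hi Tregs, which were at 23170, 19266 and 15552 CPM (19077). SP/tolerant CD4+ cells were at 24818, 17096 and 12908 CPM (17627) and SP/naive CD45+CD4- cells at 27659, 7525 and 22329 CPM (16688), the latter the most scattered subset of all. The lowest levels were those of SP/tolerant CD45+CD4- cells, at 6967, 9645 and 11822 CPM (9262), and of SP/CD127-/lo Tregs, at 5803, 9624 and 13395 CPM (9078). From the lowest library to the highest, Malat1 varied 13.3-fold over the 24 spleen and graft libraries.

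In the DLN, Malat1 was at 175161, 64306 and 111853 CPM in naive Tregs (geometric mean 108006), at 105848, 66731 and 66972 CPM in CD127-/lo Tregs (77917) and at 43429, 35678 and 47796 CPM in CD127hi Tregs (41994). All CD127hi libraries of the DLN lay below all 6 others of that tissue. In both tissues, no neighbours in the order of subsets differed by more than 2 standard errors computed from Malat1's own spread.

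**Figure D1:**
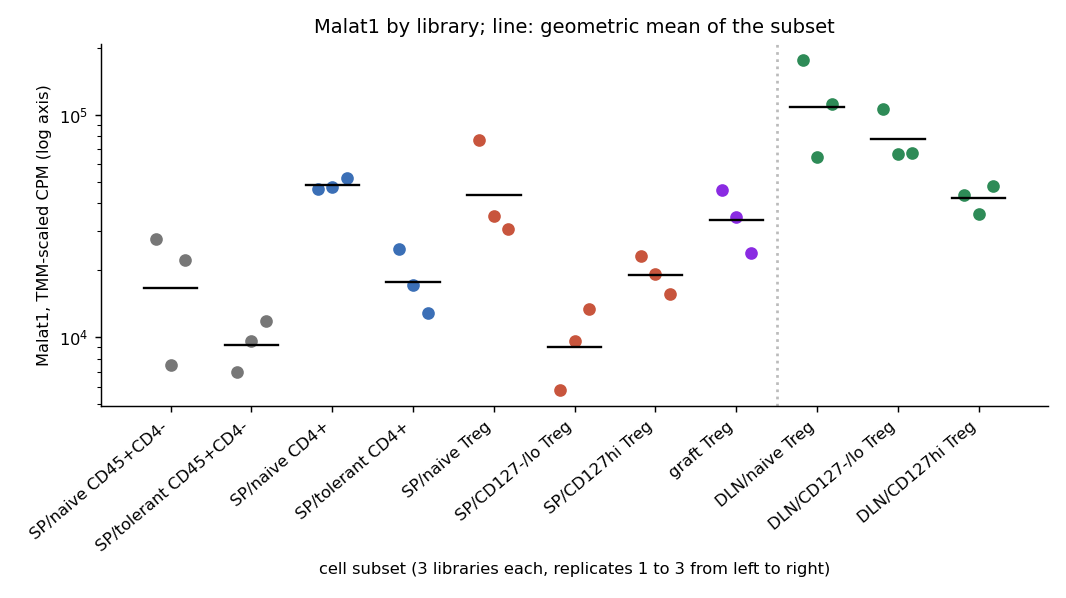
Malat1 level in every library (points; vertical log axis, TMM-scaled CPM) by cell subset along the horizontal axis, with the geometric mean of each subset as a bar; the dotted line separates spleen and graft from the DLN. SP/naive CD4+ libraries sit together between 46086 and 51700 CPM, SP/CD127-/lo Treg libraries between 5803 and 13395 CPM, and the DLN libraries at 35678 CPM and above.

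How far these differences exceed the spread between replicates depended on how the spread was estimated, and the tested Malat1 differences below are given with both estimates. The libraries of a subset differed by a standard deviation of 0.55 in log2 CPM for Malat1, which gives a standard error of 0.45 for a difference between subsets of 3 libraries. The quasi-likelihood test of edgeR, fitted over 25347 genes, draws each gene's quasi-dispersion towards that of genes with like levels, and no gene had a higher mean level than Malat1. Its own quasi-dispersion was 0.618, the trend at its level 0.0184 and the value used 0.0698, so the model's standard errors, near 0.15, were smaller than those of its own spread. The robust form of the test, added after the data had been seen, used 0.609 for Malat1. For Neat1 the own value was 0.261 and the value used 0.413, and the model's standard error near 0.43 was larger than the 0.34 of its own spread. An exact permutation test of 3 against 3 libraries cannot give a p below 0.1 and could not pass the threshold of 0.05. The adjusted p-values below are edgeR's, with Benjamini-Hochberg adjustment over all genes tested.

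The comparison that drew attention to Malat1 was that of SP/CD127hi with SP/naive Tregs. There Malat1 was 2.46-fold lower (log2 fold change -1.30), and every SP/CD127hi library lay below every SP/naive library. The size of this difference rests in part on replicate 1 of SP/naive Tregs, the highest of the spleen, and over the fits that leave out 1 library it ranged from -1.54 to -0.76. SP/CD127-/lo Tregs were lower still, 4.95-fold below SP/naive Tregs (log2 fold change -2.31) and without overlap. SP/CD127hi Tregs were thus 2.01-fold above SP/CD127-/lo Tregs (log2 fold change 1.01), again without overlap. Graft Tregs differed from SP/naive Tregs by -0.45, with overlap, which became 0.09 without SP/naive replicate 1, and from SP/CD127hi Tregs by 0.85, without overlap. SP/naive Tregs and SP/naive CD4+ cells differed little in Malat1 over all libraries (log2 fold change -0.02), but by -0.56 without SP/naive Treg replicate 1. SP/CD127hi Tregs lay 2.50-fold below SP/naive CD4+ cells (log2 fold change -1.32), without overlap. These comparisons share subsets and are not independent of one another. The myeloid markers summed to 121 to 246 CPM in SP/CD127hi and to 25.8 to 103 CPM in SP/naive Tregs. The 13 mitochondrial genes summed to 26459 to 35755 CPM and to 17586 to 25094 CPM in the same subsets. The T cell markers summed to 6390 to 9848 CPM in SP/CD127-/lo, 2768 to 5518 CPM in SP/naive and 3409 to 3815 CPM in SP/CD127hi Tregs. The part of these in the Malat1 values was not tested.

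Between SP/tolerant and SP/naive CD4+ cells, a comparison of conventional CD4+ T cells with and without transplantation and treatment, Malat1 was 2.65-fold lower in the tolerant cells, at 18274 ± 6042 against 48418 ± 2925 CPM (mean ± SD, n = 3 each). The groups did not overlap. The log2 fold change was -1.41 ± 0.45 (standard error of own spread), with an adjusted p of 8.65e-14 by the quasi-likelihood test, which called 0.107% of all genes, and of 0.611 by the robust form, which called 0.0118%. Other values moved with it. The CD8 T and NK cell markers summed to 52.5 to 113 CPM in the naive and to 25.3 to 39.4 CPM in the tolerant CD4+ libraries, and the myeloid markers to 1.57 to 3.94 against 16.2 to 29.4 CPM, both without overlap. The marker genes Ms4a1 (B cells), Gzma (cytotoxic cells) and Hbb-bs (erythroid cells) were lower by the quasi-likelihood test, none of them by its robust form or voom, while DESeq2 called 1 CD8 T and NK, 1 myeloid and 2 erythroid markers. The erythroid markers summed to 0.392, 0.633 and 317 CPM in the naive libraries, from lowest to highest, and to at most 0.684 CPM in the tolerant ones. The Hbb-bs difference thus rests on 1 naive library. Of the 12 mitochondrial genes tested, all were below 0, with a median of -0.61 beside -0.23 over all genes, 0 called by edgeR, DESeq2 or voom and an unadjusted p under 0.05 in 3. Il2ra, a receptor chain of Tregs and activated T cells, was higher in the tolerant cells by each of these tests. Ribosomal protein genes took 5.18% to 10.4% of gene counts in the naive and 3.54% to 5.05% in the tolerant libraries. The part of these in the Malat1 result was not tested. In CD45+CD4- cells, a mixture rich in B cells, Malat1 was 2.02-fold lower in tolerant than in naive spleen (9478 ± 2432 against 19171 ± 10432 CPM), but the groups overlapped because naive replicate 2, at 7525 CPM, lay among the tolerant libraries. Here the log2 fold change was -1.02 ± 0.45, with an adjusted p of 7.00e-07 by the quasi-likelihood test (0.0355% of genes called) and of 1 by the robust form (0.00395% called). The difference of mean log2 CPM was -0.85. The SD of log2 CPM was 1.01 in the naive and 0.38 in the tolerant libraries, so the pooled 0.45 is too small here. The B cell markers summed to 2784 to 4472 CPM in the naive and to 4743 to 6158 CPM in the tolerant CD45+CD4- libraries, none of the 6 passing the test, and the myeloid markers to 102 to 507 against 365 to 958 CPM, none of the 7 passing the test either. The T cell markers summed to 821 to 1994 CPM in the naive and to 551 to 757 CPM in the tolerant libraries, without overlap, with 0 of 6 called by edgeR, an unadjusted p under 0.05 in 4, and 1 called by DESeq2. The Treg markers summed to 195 to 311 against 72.3 to 158 CPM, also without overlap, and Ikzf2, a transcription factor of Tregs, was lower in the tolerant libraries by edgeR's quasi-likelihood test (-1.27 ± 0.22, adjusted p = 0.0002), whereas its robust form, DESeq2 and voom called 0 of the 6. The part of these cells in the Malat1 result was not tested. The effect of tolerance on Malat1 differed between CD4+ and CD45+CD4- cells by -0.39 on the log2 scale, with an adjusted p of 0.952 by the quasi-likelihood test (0.0473% called), and an unadjusted p of 0.532 by the robust form, which called 0.0118% and not Malat1.

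Conventional CD4+ cells had more Malat1 than CD45+CD4- cells in both naive and tolerant spleen. In naive spleen the difference was 2.53-fold (log2 fold change 1.34 ± 0.45), without overlap, with an adjusted p of 1.95e-13 by the quasi-likelihood test, which called 1.04% of genes. The robust form gave 0.228 and called 0.54%. In tolerant spleen it was 1.93-fold (0.95 ± 0.45), also without overlap, although the lowest CD4+ library (12908 CPM) was close to the highest CD45+CD4- library (11822 CPM). The adjusted p was 3.22e-07, with 1.53% of genes called, and 0.403 by the robust form, with 1.03% called. In both comparisons all 6 B cell markers were lower in the CD4+ cells by the quasi-likelihood test, with 1 and 3 of them called by its robust form. By the quasi-likelihood test Cd8a and Lyz2 were also lower in both, Ncr1 and Gzma in tolerant spleen. The mitochondrial mt-Co1 was higher in both and mt-Cytb in naive spleen, whereas mt-Nd2 was lower in tolerant spleen, and Hbb-bs was higher in naive and lower in tolerant spleen. The higher Hbb-bs in naive spleen rests on the 1 CD4+ library with erythroid markers at 317 CPM. The robust form called none of these CD8 T and NK, myeloid, mitochondrial or erythroid genes. The Treg markers summed to 523 to 1814 CPM in naive CD4+ and to 195 to 311 CPM in naive CD45+CD4- libraries. In tolerant spleen they summed to 733 to 976 and to 72.3 to 158 CPM, without overlap in either. The part of all these markers in the Malat1 results was not tested.

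The difference that passed both forms of the test, though not voom (adjusted p = 0.626), was that of SP/CD127-/lo Tregs and SP/naive CD4+ cells. Malat1 was 5.04-fold lower in the SP/CD127-/lo Tregs (9607 ± 3796 against 48418 ± 2925 CPM), and the highest of these Treg libraries lay far below the lowest CD4+ library. The log2 fold change was -2.33 ± 0.45, with an adjusted p of 5.54e-33 by the quasi-likelihood test (0.469% of genes called) and of 0.0297 by the robust form (0.185% called). The share of uniquely mapped pairs outside every annotated exon was 16.6% to 30.8% in these Tregs and 34.5% to 46.3% in the CD4+ cells, and with it as a covariate the log2 fold change was -2.35 (adjusted p = 3.53e-07 by the quasi-likelihood test). The myeloid markers summed to 7.29 to 299 CPM in these Tregs and to 1.57 to 3.94 CPM in the CD4+ cells, without overlap. Lyz2, a myeloid lysozyme gene, was higher and Ms4a1 lower in the Tregs by the quasi-likelihood test, neither list having a call by its robust form. The CD8 T and NK cell markers summed to 24.4 to 51.4 CPM in these Tregs and to 52.5 to 113 CPM in the CD4+ cells, also without overlap. The part of these in the Malat1 result was not tested. These groups differ in transplantation and treatment as well as in cell type, which cannot be told apart in this comparison. Within tolerant spleen, SP/CD127-/lo Tregs were 1.90-fold below the CD4+ cells (-0.93 ± 0.45), but the groups overlapped, since Treg replicate 3 at 13395 CPM lay above CD4+ replicate 3 at 12908 CPM. The adjusted p was 3.13e-06 (0.284% called) and 0.693 by the robust form (0.103% called). Here all 12 mitochondrial genes tested were above 0, with a median of 0.78 beside 0 over all genes, and mt-Nd1, mt-Nd2 and mt-Cytb were higher in the Tregs, as were Lyz2, Cd79b and Hbb-bs, each by the quasi-likelihood test and none by its robust form. The erythroid markers summed to 0.252, 5.37 and 563 CPM in these Treg libraries, from lowest to highest, so the Hbb-bs call rests mostly on 1 library. The part of these genes in the Malat1 result was not tested.

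Tregs of the graft, the site of the accepted tissue, had 3.63-fold more Malat1 than SP/CD127-/lo Tregs of the same tolerant condition, at 34875 ± 10937 against 9607 ± 3796 CPM, without overlap. The log2 fold change was 1.86 ± 0.45, with an adjusted p of 4.22e-23 by the quasi-likelihood test (0.0829% of genes called) and of 0.329 by the robust form (0.00395% called). Against SP/naive CD4+ cells the graft Tregs were 1.39-fold lower (-0.47 ± 0.45), and graft replicate 1, at 45883 CPM, lay just below the lowest CD4+ library. That difference passed neither form, with an adjusted p of 0.133 (0.619% called) and of 0.685 (0.241% called). The graft libraries also carried more mitochondrially encoded RNA, the 13 genes summing to 49443 to 75015 CPM against 23564 to 51401 CPM in SP/CD127-/lo Tregs, with 4 of 12 tested genes higher by the quasi-likelihood test, 0 by its robust form, 1 by DESeq2 and 4 by voom. The kidney markers summed to at most 0.293 CPM in SP/CD127-/lo Tregs, where 6 of the 8 were at 0 in all 3 libraries, and Kap, a kidney androgen-regulated gene, was higher in the graft. The part of either in the Malat1 result was not tested.

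In the DLN, Malat1 was 2.77-fold lower in CD127hi than in naive Tregs, at 42301 ± 6137 against 117107 ± 55614 CPM, without overlap. The log2 fold change was -1.47 ± 0.45, with an adjusted p of 4.76e-15 (0.951% of genes called) and of 0.185 by the robust form (0.56% called). With replicate 3 as the only naive library, assumed to vary like the libraries of the other subsets, it was -1.35, with an adjusted p of 1.85e-09 by the quasi-likelihood test and of 0.452 by the robust form. CD127-/lo Tregs differed from naive Tregs by -0.55 ± 0.45 with overlap, and neither form called it (adjusted p of 0.0556 with 0.355% of genes called, and of 0.664 with 0.126% called). With replicate 3 alone that value was -0.47 (adjusted p = 0.336, or 0.783 by the robust form). Within tolerant mice, DLN/CD127hi Tregs were 1.89-fold below DLN/CD127-/lo Tregs (-0.92 ± 0.45), without overlap, with an adjusted p of 7.60e-06 (0.418% called) and of 0.577 by the robust form (0.288% called). B cell marker sums ran in the opposite order, from 5.58 to 39.1 CPM in DLN/naive over 79.0 to 195 CPM in DLN/CD127-/lo to 142 to 443 CPM in DLN/CD127hi Tregs, with 3 of 6 markers higher in CD127hi than in naive and none at 0 in all 3 libraries of a subset. The myeloid markers summed to 2.80 to 428 CPM in DLN/naive, 102 to 718 CPM in DLN/CD127-/lo and 576 to 848 CPM in DLN/CD127hi Tregs, with Itgam at 0 in all 9 libraries and, between CD127hi and naive Tregs, 0 of 7 called by edgeR, an unadjusted p under 0.05 in 2 and 1 called by DESeq2. In that comparison Cd8b1, a CD8 T cell gene, and the mitochondrial mt-Nd4 and mt-Co1 were higher in CD127hi Tregs, and Cd8a, mt-Nd2 and mt-Nd4 were higher in CD127hi than in CD127-/lo Tregs, by the quasi-likelihood test. Its robust form called Cd8b1 in the first and mt-Nd4 in the second of these comparisons and no B cell marker. The part of these in the Malat1 results was not tested. The CD127 contrast thus ran in opposite directions in the spleen, where CD127hi Tregs had more Malat1 than CD127-/lo Tregs, and in the DLN, where they had less; the difference between the tissues was not tested because the tissues were sequenced on different instruments. The median log2 fold change over all genes tested was 0.45 for CD127hi and 0.61 for CD127-/lo against naive Tregs of the DLN, and -0.01 between the tolerant subsets. Counted over the 11 tested comparisons, Malat1 was called in 9 by the quasi-likelihood test and in 1 by the robust form. Over all genes these forms called 0.535% and 0.281% of the tests in the same comparisons. The Malat1 groups did not overlap in 8. How often the groups of other genes did not overlap was not counted, and the comparisons share subsets.

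**Figure D2:**
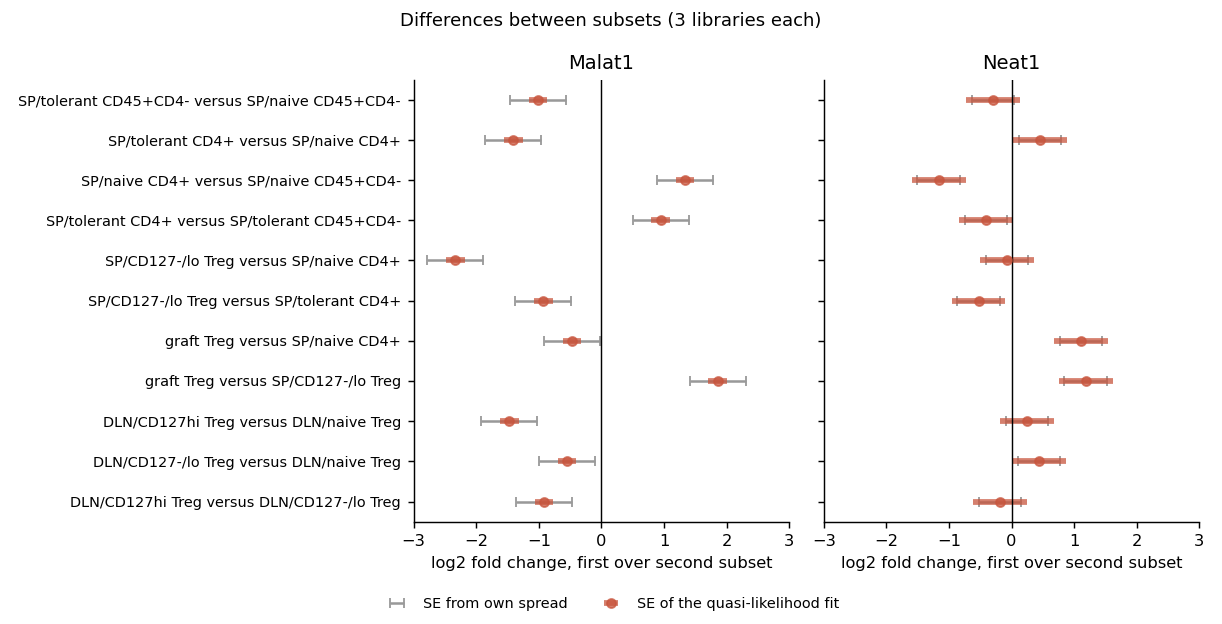
Log2 fold changes (horizontal axis, first over second subset, 3 libraries each) of Malat1 (left) and Neat1 (right) in the 11 tested comparisons, with the standard error of the quasi-likelihood fit as the thick bar and that of the gene's own spread as the thin capped bar. For Malat1 the own-spread bars, 0.45 to either side, are about 3 times as long as those of the fit; for Neat1 they are 0.34, shorter than those of the fit.

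Neat1 varied less than Malat1 and ordered the subsets differently. Its highest geometric means in the spleen and graft were those of SP/CD127hi Tregs (534 CPM, replicates at 484, 557 and 563), SP/naive CD45+CD4- cells (517 CPM, at 686, 512 and 393) and graft Tregs (501 CPM, at 566, 374 and 595). The replicates of these subsets overlap. SP/tolerant CD45+CD4- cells followed at 460, 408 and 426 CPM (431) and SP/naive Tregs at 347, 666 and 308 CPM (415), the latter with replicate 2 far above the other replicates. SP/tolerant CD4+ cells were at 238, 401 and 333 CPM (317), overlapping the subsets on either side. The lowest were SP/naive CD4+ cells, at 218, 276 and 215 CPM (235), and SP/CD127-/lo Tregs, at 125, 259 and 291 CPM (211). In the DLN the geometric means were 420 CPM in CD127-/lo Tregs (615, 394 and 305), 385 CPM in CD127hi Tregs (402, 363 and 391) and 306 CPM in naive Tregs (244, 488 and 241). Every pair of neighbours in either order overlapped, and the libraries spanned 5.47-fold in the spleen and graft and 2.55-fold in the DLN. The SP/naive CD4+ cells, highest for Malat1, were thus next to lowest for Neat1.

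**Figure D3:**
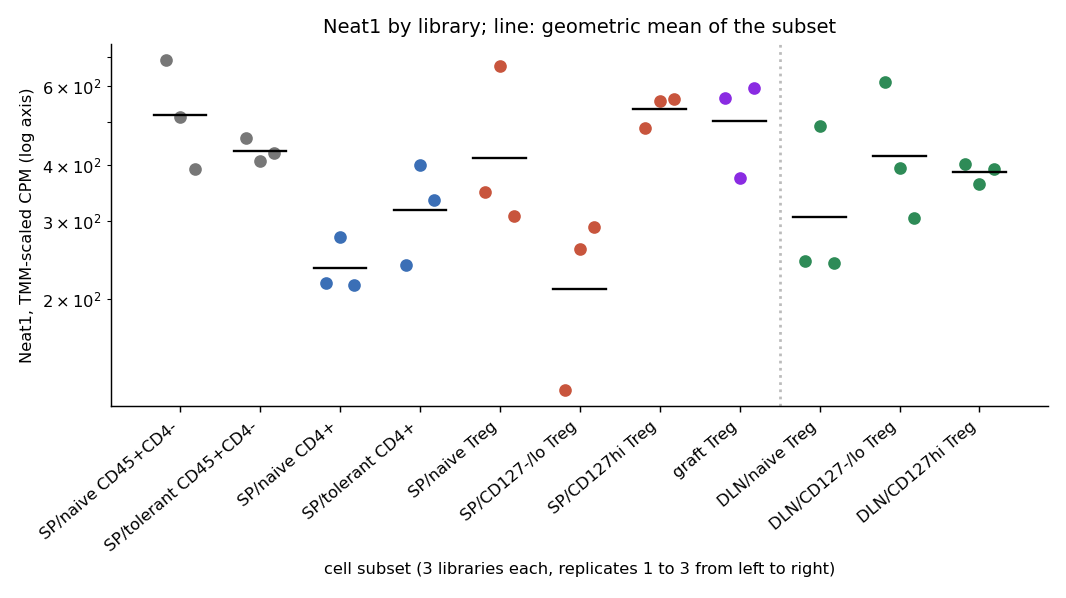
Neat1 level in every library (points; vertical log axis, TMM-scaled CPM) by cell subset along the horizontal axis, with the geometric mean of each subset as a bar; the dotted line separates spleen and graft from the DLN. The subsets overlap their neighbours in level, from 125 CPM in an SP/CD127-/lo Treg library to 686 CPM in an SP/naive CD45+CD4- library.

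Over all genes in the 11 tested comparisons the quasi-likelihood test called 0.535% of tests, its robust form 0.281% and DESeq2 3.6%. An unadjusted p under 0.05 by the quasi-likelihood test was seen in 8.66%. Neat1 was called in 0 of the 11 by the quasi-likelihood test and in 0 by its robust form, with an unadjusted p under 0.05 in 3, and in 1 by DESeq2. That comparison was SP/naive CD4+ with SP/naive CD45+CD4- cells, where Neat1 was 2.24-fold lower in the CD4+ cells (236 ± 34.5 against 530 ± 148 CPM) without overlap. The log2 fold change was -1.17 ± 0.34 (standard error of own spread), with an adjusted p of 0.227 by edgeR and of 0.0221 by DESeq2. Graft Tregs had 2.16-fold more Neat1 than SP/naive CD4+ cells (1.11 ± 0.34, adjusted p = 0.263) and 2.27-fold more than SP/CD127-/lo Tregs (1.18 ± 0.34, adjusted p = 0.350 by edgeR), both without overlap. Between tolerant and naive cells the log2 fold change was 0.46 ± 0.34 in CD4+ and -0.30 ± 0.34 in CD45+CD4- cells, with overlap in both. SP/CD127-/lo Tregs differed from SP/naive CD4+ cells by -0.07 and from SP/tolerant CD4+ cells by -0.53, and SP/tolerant CD4+ from SP/tolerant CD45+CD4- cells by -0.41, the last without overlap. The DLN values were 0.25 for CD127hi and 0.43 for CD127-/lo against naive Tregs, and -0.19 for CD127hi against CD127-/lo Tregs, all with overlap. With replicate 3 as the only DLN/naive library the first 2 were 0.73 and 0.88. The 8 differences other than those of SP/naive CD4+ with SP/naive CD45+CD4- cells and of graft Tregs, from -0.53 to 0.46 over all libraries, were each within 2 standard errors of own spread.

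In the comparisons described without a test, the differences of Neat1 were not ordered as those of Malat1. SP/CD127hi Tregs were 1.21-fold above SP/naive Tregs (log2 fold change 0.28, with overlap), which became 0.71 without SP/naive replicate 2. They were 2.38-fold above SP/CD127-/lo Tregs (1.25) and 2.26-fold above SP/naive CD4+ cells (1.18), without overlap in either. SP/CD127hi Tregs thus had the highest mean Neat1 of the spleen while having less Malat1 than SP/naive Tregs. SP/CD127-/lo Tregs were 1.96-fold below SP/naive Tregs (-0.97), or -0.54 without the same replicate. SP/naive Tregs were 1.86-fold above SP/naive CD4+ cells (0.90, or 0.47 without it). Replicate 2 of SP/naive Tregs, at 666 CPM of Neat1, thus moved each value that rests on this subset. Graft Tregs differed by 0.22 from SP/naive Tregs, or 0.64 without it, and by -0.06 from SP/CD127hi Tregs. Over the 24 spleen and graft libraries the log2 levels of Malat1 and Neat1 gave 0.07 for Pearson's r and -0.05 for Spearman's rho, given as a description, and r was -0.18 without the 2 libraries farthest in Malat1. In the 9 DLN libraries r was -0.35 and rho -0.38 (adjusted p = 0.524 and 0.450, exact or sampled permutations). Per kilobase of the whole gene (6983 bases for Malat1 and 20771 for Neat1), Malat1 exceeded Neat1 in every library, by 43.8-fold at the least, in SP/naive CD45+CD4- cells, to 2139-fold at the most, in DLN/naive Tregs, with a median of 241-fold. Each ratio would be smaller if the Neat1 counts came from its short form, which cannot be told from counts per gene.

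Reads that map uniquely to the genome outside every annotated exon are counted as noFeature, and they hold intronic and intergenic sequence. Their share of the uniquely mapped pairs ran from 16.6% in SP/CD127-/lo Treg replicate 1 to 60.4% in DLN/CD127-/lo Treg replicate 2, with a median of 38.9%. It was 45.5%, 49.1% and 41.0% in SP/naive CD45+CD4- cells and 35.8%, 41.9% and 37.9% in SP/CD127hi Tregs. SP/CD127-/lo Tregs, the subset lowest in Malat1 and in Neat1, were also lowest in the share, at 16.6%, 30.5% and 30.8%, without overlap with any other spleen or graft subset but SP/tolerant CD4+ cells (27.8% to 38.2%). The relation of Malat1 to it is given as a description, since the libraries include those the pair was selected on. Over the 24 spleen and graft libraries r was 0.25 and rho 0.19, and r was -0.03 without the 2 libraries farthest in the share. In the 9 DLN libraries the sign was the other way, with an r of -0.30 and a rho of -0.50 (permutation test, adjusted p = 0.524 and 0.355).

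Neat1 was higher in libraries with a larger noFeature share. Over the 24 libraries r was 0.70 and rho 0.58 (permutation test, p = 2.0e-04 and 0.0030, adjusted p = 0.0012 and 0.018 over 6 relations). The permutations moved libraries freely across subsets, which differ in both values, so these p-values take all libraries as independent. The libraries also include those the pair was selected on. With a mean for each subset, the slope over the 24 libraries had an adjusted p of 0.170 by the quasi-likelihood test. Without the 2 farthest libraries, SP/CD127-/lo Treg replicate 1 and SP/naive Treg replicate 2, r was 0.49, and among deviations from the subset means it was 0.75, so the relation was also seen between libraries of the same subset. Of 8626 genes with a mean of at least 10 CPM, 34 (0.394%) had an r with the share as high as that of Neat1, and the median gene had -0.02. In the 9 DLN libraries r was 0.60 and rho 0.75 (permutation test, adjusted p = 0.267 and 0.0765), and 388 of 8131 genes (4.77%) had an r as high. Scaled to uniquely mapped pairs in place of gene counts, r of the 24 libraries was 0.56 (permutation test, adjusted p = 0.0295) and 0.30 without the 2 farthest, and rho had an adjusted p of 0.209, so the relation was weaker on that scale. In a fit over all 33 libraries with a mean for each subset, the slope of Neat1 was 0.37 ± 0.14 in log2 level for each 10 percentage points of the share, with an adjusted p of 0.163 by the quasi-likelihood test, which called 0.592% of genes for this slope. The median slope over all genes tested was 0.58, above that of Neat1. The robust form called 0.572%. The slope of Malat1 was -0.01 ± 0.10, or ± 0.17 by the robust form, as a description. The share and the levels come from the same libraries.

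**Figure D4:**
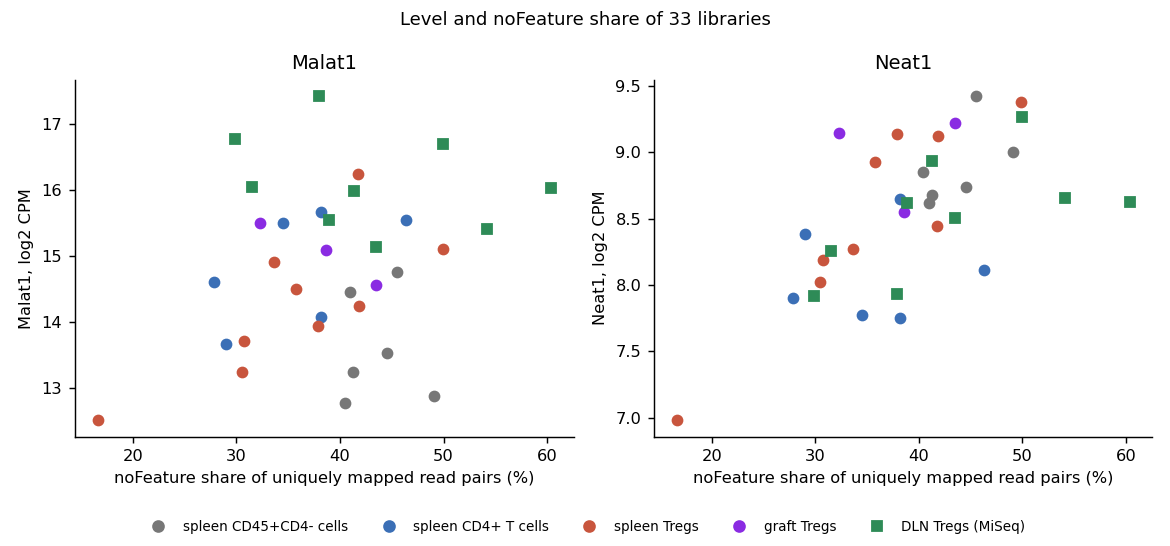
Log2 CPM of Malat1 (left) and Neat1 (right) on the vertical axes against the noFeature share of uniquely mapped pairs (horizontal axes, %) in the 33 libraries, coloured by cell type, with DLN libraries as squares. Neat1 is higher where the share is larger (r = 0.70 over the 24 spleen and graft libraries), with the library at 16.6% lowest; for Malat1 r is 0.25 over the same libraries.

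The genes whose log2 levels were most like those of Malat1 over the 24 spleen and graft libraries, of 8624 with a mean of at least 10 CPM, were Tpr (r = 0.82), Srrm2 (0.81), Son (0.79), Gm26740 (0.78) and Vps13c (0.78). Tpr is a protein of the nuclear pore basket, Srrm2 and Son are the large scaffold proteins of nuclear speckles, and Vps13c is a lipid transfer protein. Among deviations from the subset means the same genes had an r of 0.58, 0.79, 0.63, 0.57 and 0.61. In the 9 DLN libraries, not used in the choice, it was 0.83, 0.41, 0.72, 0.38 and 0.21. Over all 33 libraries the order was Son (0.86), Srrm2 (0.85), Fam133b (0.84), N4bp2l2 (0.80) and Tpr (0.79). Such correlations across libraries of different cell types share cell type, depth and scaling, and are a description. Those over all 33 libraries also share tissue and sequencer, across which Malat1 and Son were both higher in the DLN on average.

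Son ran from 1806 CPM in an SP/CD127-/lo Treg library, where Malat1 was also lowest, to 8367 CPM in a DLN/CD127-/lo Treg library. Its subset means were 2236 ± 377 CPM in SP/naive CD45+CD4- and 3724 ± 573 CPM in SP/naive CD4+ cells, 2511 ± 691 CPM in SP/CD127-/lo and 3287 ± 166 CPM in graft Tregs. Srrm2 was lowest in SP/CD127-/lo Tregs (267 ± 79.7 CPM) and in SP/tolerant CD45+CD4- cells (322 ± 78.6 CPM), the subsets lowest in Malat1 as well. Unlike Malat1, Srrm2 was not lower in SP/tolerant CD4+ cells (581 ± 87.8 CPM) than in SP/naive CD4+ cells (547 ± 148 CPM) on these means.

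**Figure D5:**
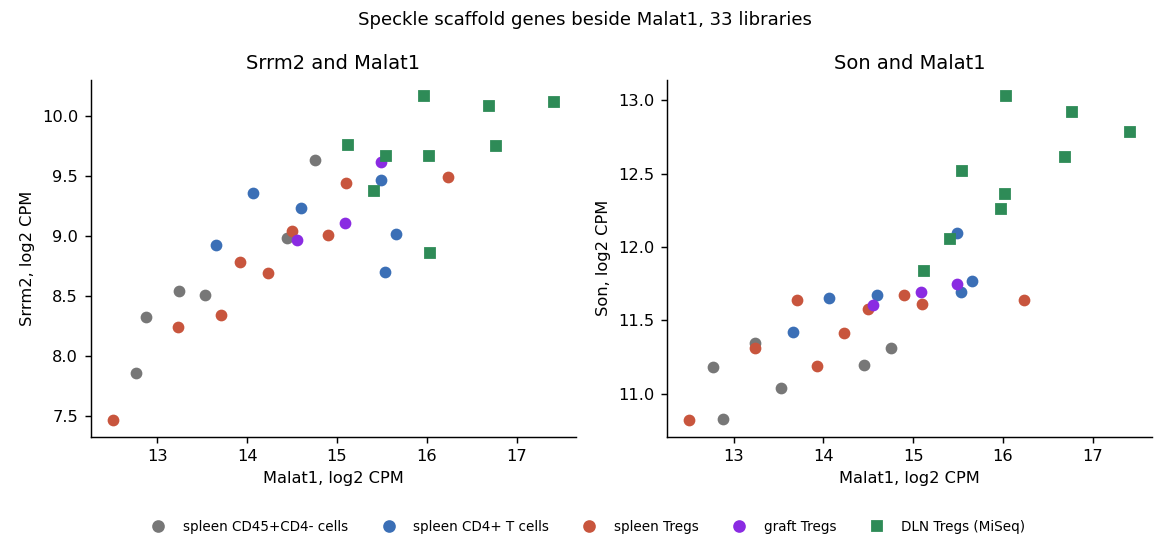
Log2 CPM of Srrm2 (left) and Son (right) on the vertical axes against log2 CPM of Malat1 (horizontal axes) in the 33 libraries, coloured by cell type, with DLN libraries as squares. The library lowest in Malat1 is lowest in both genes, and the highest level of each is in a DLN library; r over the 24 spleen and graft libraries is 0.81 for Srrm2 and 0.79 for Son.

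For Neat1 the most alike genes were Ccdc88c (r = 0.84), Phf1 (0.80), Gm38948 (0.79), Gtpbp2 (0.78) and Clk2 (0.77), with 0.59, 0.59, 0.68, 0.77 and 0.55 among deviations from the subset means. Phf1 is a Polycomb-associated protein, Gtpbp2 a GTP-binding protein of ribosome rescue and Clk2 a kinase of SR splicing factors. In the DLN libraries their r with Neat1 was 0.63, 0.27, 0.06, 0.44 and 0.07. Over all 33 libraries, across tissue and sequencer, Arhgap30 (0.69) and Ccdc88c (0.66) led. Ccdc88c is an actin-associated signalling protein and had 453 ± 103 CPM in SP/naive CD45+CD4-, 175 ± 95.6 CPM in SP/naive CD4+ cells and 114 to 221 CPM in the SP/CD127-/lo Treg libraries. None of the 5 genes listed first for Malat1 was among those listed for Neat1.

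The partners of the RNAs were taken from lists. Of 22 paraspeckle protein genes, all tested, 0 were called in either direction in any of the 11 comparisons, 242 tests in all, by edgeR's quasi-likelihood test, with an unadjusted p under 0.05 in 9 (3.72%). Over all genes in these comparisons 0.535% of tests were called and 8.66% had an unadjusted p under 0.05, so 0 calls in a list of this size say little about it. The robust form called 0 (0.281% over all genes), and DESeq2 (3.6%) and limma voom (1.26%) 1 each, which was Sfpq, lower in SP/tolerant CD4+ than in SP/tolerant CD45+CD4- cells (-1.31 ± 0.46, adjusted p = 0.137 by edgeR). The median of the list was lowest between SP/CD127-/lo Tregs and SP/tolerant CD4+ cells, at -0.46 with 5 of 22 genes above 0, and highest between graft and SP/CD127-/lo Tregs, at 0.15 with 13 of 22 above 0, the median over all genes being 0 in both. Nono had 108 to 284 CPM and Sfpq 238 to 590 CPM as subset means. The summed level of the 22 genes was 3033 to 3535 CPM in SP/CD127-/lo Tregs and 4317 to 4736 CPM in SP/naive CD45+CD4- cells, the subsets with the lowest and the next to highest Neat1 of the spleen, and 3439 to 4273 CPM in SP/CD127hi Tregs, the subset highest in Neat1.

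Of 25 nuclear speckle and SR splicing factor genes, 4 of 275 tests were called (1.45%, beside 0.535% over all genes), all higher and all between CD4+ and CD45+CD4- cells. The robust form called 1 of the 275, Srsf7 in tolerant spleen, DESeq2 5 and voom 8. In naive spleen the quasi-likelihood test called Son (log2 fold change 0.74 ± 0.20, adjusted p = 0.0247 by edgeR) and Srsf7, an SR splicing factor (1.09 ± 0.29, adjusted p = 0.0285), in a comparison that called 1.04% of all genes. Its robust form called neither there. In tolerant spleen the quasi-likelihood test called Srsf7 (1.34 ± 0.30, adjusted p = 0.0016) and Clk1, a kinase of SR proteins (1.04 ± 0.29, adjusted p = 0.0300). The list's median was -0.01 in the first of these comparisons, with 12 of 25 genes above 0, and 0.31 in the second, with 15 of 25 above 0 and a median over all genes of -0.05. Between SP/CD127-/lo Tregs and SP/naive CD4+ cells, where Malat1 differed most, 0 of 25 were called by edgeR, its robust form or DESeq2 and 1 by voom, with an unadjusted p under 0.05 in 2, and Son differed by -0.57 ± 0.19 (adjusted p = 0.265 by edgeR).

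Of 15 genes for 3′ end processing and binding of Malat1, such as the RNase P subunits and Mettl16, a methyltransferase that binds the Malat1 end, 14 were tested and 0 called in 154 tests by edgeR (0.535% over all genes), with an unadjusted p under 0.05 in 16 (10.4%, beside 8.66% over all genes), 0 calls by the robust form, 6 by DESeq2 and 2 by voom. The same shares over all genes apply to the next list, and 0 calls in lists of this size say little about them. Of the 14 neighbours of the genes on chromosome 19, 13 were tested and 0 called in 143 tests by edgeR, with an unadjusted p under 0.05 in 11 (7.69%), 0 calls by the robust form, 2 by DESeq2 (Capn1 and Ltbp3) and 1 by voom (Ehbp1l1), and with summed levels between 134 and 391 CPM over all libraries. Of 14 other nuclear long noncoding RNAs 11 were tested, in 121 tests, of which the robust form called 2, DESeq2 5 and voom 2. The quasi-likelihood test called 2 (1.65%, beside 0.535% over all genes), both Xist. It was lower in DLN/CD127hi (log2 fold change -7.57, adjusted p = 0.0045 by edgeR) and in DLN/CD127-/lo Tregs (-7.58, adjusted p = 0.0098) than in the DLN/naive Tregs described above, in comparisons that called 0.951% and 0.355% of genes. These calls of Xist rest on DLN/naive replicates 1 and 2, since it was at 1.24 CPM in replicate 3. Kcnq1ot1, a nuclear antisense RNA of an imprinted region, had subset means of 321 to 678 CPM, lowest in SP/CD127-/lo and highest in SP/naive Tregs, and was not called by the quasi-likelihood test. Of 18 spliced or cytoplasmic long noncoding RNAs 8 were tested, in 88 tests. The robust form called 3, DESeq2 4 and voom 7 of them, beside 0.281%, 3.6% and 1.26% over all genes. The quasi-likelihood test called 3 (3.41%, beside 0.535% over all genes), all Mir142hg, the host gene of the blood cell microRNA miR-142. It was higher in SP/tolerant CD4+ than in SP/tolerant CD45+CD4- cells (1.84 ± 0.31, adjusted p = 2.31e-06 by edgeR), where 1.53% of genes were called. It was lower in SP/CD127-/lo Tregs than in SP/naive CD4+ (-1.46 ± 0.30, adjusted p = 0.0015) and SP/tolerant CD4+ cells (-1.33 ± 0.30, adjusted p = 0.0084), where 0.469% and 0.284% of genes were called.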

How the data were processed

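Libraries were made from a fixed number of sorted cells with SMART-Seq v4, which primes cDNA at poly(A) with oligo-dT, and Nextera XT. Per the methods, the authors used Trim Galore for trimming and STAR for alignment (mm10 plus EGFP) and deposited raw counts of read pairs per Ensembl gene, not normalized. The methods name HTSeq, whereas the files have the layout of STAR gene counts; the unstranded column was used. The library is not stranded (50.1 to 51.3% of Malat1 pairs fall in the first of the strand columns and the rest in the other), so antisense reads cannot be told apart, and the 5 small annotated genes inside the pair were not in the table. Here the 25347 genes reaching 1 CPM in any library were fitted with edgeR 4.0.16 in R 4.3.3: TMM factors (0.847 to 1.20), 1 mean per subset over all 33 libraries, the quasi-likelihood test, Benjamini-Hochberg adjustment over all genes and a threshold of 0.05. Fold changes are unshrunk. Own-spread errors are from the SD of log2 CPM within subsets (22 residual degrees of freedom). Correlations used scipy 1.17.1 with exact permutations or 100000 resamples.

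The members, the lists and the rule for named genes (both members in each library, the 5 genes with the highest r with each, and at most 4 per list with the smallest adjusted p) were chosen with earlier results of these data known. Son and Srrm2 levels were singled out after their values were seen. The robust and single-dispersion forms and the fits with DLN/naive replicate 3 alone were chosen after seeing the data. The labels do not say whether replicate numbers pair libraries, and they were not used as pairs. The correlation of same-numbered libraries was over 0.1 in all pairs of none of the 18 comparisons, which cannot show that no animals were shared. Gene symbols and coordinates came from GENCODE vM21 (GRCm38), where 120 identifiers had no symbol. No pair of replicates agreed within sampling noise, so none was counted as a library deposited more than once.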

Additional observations from a re-analysis of the deposited data

Results flagged for a closer look

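The difference of Malat1 between CD127hi and CD127-/lo Tregs of tolerant mice ran in opposite directions in the spleen and in the DLN. In the spleen all 3 CD127hi libraries (15552 to 23170 CPM) were above all 3 CD127-/lo libraries (5803 to 13395 CPM), with a log2 fold change of 1.01, which belongs to the values the pair was selected on. In the DLN all 3 CD127hi libraries (35678 to 47796 CPM) were below all 3 CD127-/lo libraries (66731 to 105848 CPM), with a log2 fold change of -0.92. In the spleen the T cell markers summed to 3409 to 3815 CPM in CD127hi and to 6390 to 9848 CPM in CD127-/lo Tregs. The noFeature share there was 35.8% to 41.9% and 16.6% to 30.8%. Neither overlapped, whereas both overlapped between these subsets in the DLN. The part of these in the Malat1 values was not tested. The difference between the tissues was not tested, since tissue and sequencer cannot be told apart. The remaining differences of Malat1 or Neat1 that could be set beside each other in both tissues did not run without overlap in opposite directions.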

How the results depend on the processing

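Among the differences described without a test, that of Malat1 between graft and SP/naive Tregs changed sign on leaving out SP/naive replicate 1 (0.09), and that between SP/naive Tregs and SP/naive CD4+ cells, near 0, ran from -0.56 to 0.21. The direction of Malat1 in all 11 tested comparisons stayed under every alternative run and on leaving out each library, whereas its calls depended on how the variance was estimated. It was called in 9 comparisons, in 11 with the replicate block, without a filter on low counts or with 1 dispersion, in 10 without TMM factors or scaled to uniquely mapped pairs, and in 9 with RLE normalization. It was called in 7 with ComBat-Seq counts or the compared libraries only, in 5 with the noFeature share as covariate, in 3 with a filter of at least 10 counts in 3 libraries, in 2 by DESeq2, in 1 by the likelihood ratio test or the robust form, and in 0 by limma voom. The cause was not tested. The values that follow are adjusted p-values.

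For SP/tolerant against SP/naive CD45+CD4- cells Malat1 had 1 by DESeq2, the robust form and the filter on counts, 0.968 by voom, 0.980 by the likelihood ratio test, 0.320 with the noFeature share, 0.421 with ComBat-Seq and 0.688 with the compared libraries only. For SP/tolerant against SP/naive CD4+ cells it had 0.132 by DESeq2, 0.226 by voom, 0.611 by the robust form, 0.556 by the likelihood ratio test and 0.133 with the filter on counts. For SP/naive CD4+ against SP/naive CD45+CD4- cells it had 0.0936 by DESeq2, 0.438 by voom, 0.228 by the robust form, 0.273 by the likelihood ratio test and 0.0545 with the compared libraries only. For SP/tolerant CD4+ against SP/tolerant CD45+CD4- cells it had 0.384 by DESeq2, 0.896 by voom, 0.403 by the robust form, 0.471 by the likelihood ratio test, 0.178 with the filter on counts and 0.123 with the noFeature share. SP/CD127-/lo Tregs against SP/naive CD4+ cells lost the call by voom only (0.626). Against SP/tolerant CD4+ cells they had 0.456 by DESeq2, 0.911 by voom, 0.693 by the robust form, 0.798 by the likelihood ratio test, 0.388 with the filter on counts, 0.224 with the noFeature share, 0.360 with ComBat-Seq and 0.122 with the compared libraries only. For graft against SP/CD127-/lo Tregs it had 0.977 by voom, 0.329 by the robust form, 0.139 by the likelihood ratio test and 0.0586 with the filter on counts.

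In the DLN, CD127hi against naive Tregs had 0.0527 by DESeq2, 0.182 by voom, 0.185 by the robust form (0.452 with replicate 3 as the only naive library) and 0.157 by the likelihood ratio test. DLN/CD127hi against DLN/CD127-/lo Tregs had 0.281 by DESeq2, 0.535 by voom, 0.577 by the robust form, 0.593 by the likelihood ratio test, 0.277 with the filter on counts and 0.142 with the noFeature share. Malat1 became called for graft Tregs against SP/naive CD4+ cells with 1 dispersion (3.81e-08), without TMM factors (0.0299) and without a filter (8.99e-08), and for DLN/CD127-/lo against DLN/naive Tregs with 1 dispersion (6.23e-11), scaled to uniquely mapped pairs (0.0134), without a filter (2.91e-10) and with the compared libraries only (4.39e-13).

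With the replicate block Malat1 was called in these comparisons too (1.34e-14 for graft Tregs against SP/naive CD4+ cells, 1.06e-14 for DLN/CD127-/lo against DLN/naive Tregs) and in the difference of the tolerance effect between CD4+ and CD45+CD4- cells (2.88e-07), and Neat1 in 0, but in no comparison were the correlations of all same-numbered libraries over 0.1, the limit set for pairing, so they are treated as sharing only a number. In 2 of the 18 comparisons every library correlated best with its own number, a hint from the data and not from the design.

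Leaving out 1 library at a time kept the other 9 calls of Malat1. The adjusted p ranged from 4.78e-05 to 0.489 for graft Tregs against SP/naive CD4+ cells, passing without any 1 of the SP/naive CD4+ libraries or without graft replicate 1. It ranged from 4.70e-12 to 0.728 for DLN/CD127-/lo against DLN/naive Tregs, passing without naive replicate 2 or 3 or any 1 CD127-/lo library. For the difference of the tolerance effect it ranged from 1.93e-07 to 1, passing without SP/naive CD45+CD4- replicate 1 or 3 or SP/tolerant CD45+CD4- replicate 1. The Malat1 difference between tolerant and naive CD45+CD4- cells, called throughout, ran from -1.41 without naive replicate 2 to -0.66 without naive replicate 1.

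Neat1 passed in 1 comparison under 1 alternative (SP/naive CD4+ against SP/naive CD45+CD4- cells, DESeq2, 0.0221). Its differences near 0 changed sign without being called: SP/CD127-/lo Tregs against SP/naive CD4+ cells scaled to uniquely mapped pairs (0.933), with the noFeature share (0.953) and without SP/naive CD4+ replicate 2 or SP/CD127-/lo replicate 1 (0.919 to 1 over libraries left out), DLN/CD127hi against DLN/naive Tregs with the noFeature share (1), and DLN/CD127hi against DLN/CD127-/lo Tregs scaled to uniquely mapped pairs (1) and without DLN/CD127-/lo replicate 1 (0.869 to 1). The slope of Malat1 on the noFeature share, near 0, changed sign in the 24 spleen and graft libraries (0.993) and in the 9 DLN libraries (0.669). It did so too with RLE normalization (0.765), with the replicate block (0.487) and on leaving out 16 of the 33 libraries. Over all 33 left out in turn the range was 0.587 to 0.999. Apart from that of the 9 DLN libraries, these Malat1 values are a description and not read as tests. The libraries behind them include those the pair was selected on. The slope of Neat1 stayed positive (0.121 to 0.285 over libraries left out). The correlation of Malat1 with Neat1 over the 24 libraries was -0.0931 scaled to uniquely mapped pairs. Depth did not limit Malat1. For Neat1, with 343 to 2286 counts, the spread between libraries set the precision.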
